A study of Mus musculus with 12 samples.

Results

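The genes described here are 8 nucleic acid sensors and relay proteins that act upstream of interferon: Ifih1, Ddx58, Dhx58, Mavs, Tmem173, Zbp1, Tlr3 and Tbk1. They were chosen by name, with earlier results of these data known. Each was found by its mouse Ensembl gene ID in the deposited matrix, 8 of 23106 genes. All 8 passed the filter on low values, a mean over the 12 libraries of 10 or more normalised reads, which left 12676 genes to test. Their transcripts were counted by QuantSeq, a 3′ tag method that reads the end of each polyadenylated RNA, in colon fibroblasts grown in culture without treatment. The cells were labelled as C57BL/6 mouse colon of 12-week-old animals. The group labelled PKCZKO_sgSox2 carried the genotype Prkcz-/- and a guide against Sox2, and is called the Sox2-guide group here. The group labelled PKCZKO_sgScr carried Prkcz-/- and a guide labelled sgScr, and is called the knockout-labelled group. The group labelled WT_sgScr had the genotype WT and the guide labelled sgScr, and is called the WT-labelled group. Each group had 4 libraries, described by the submitters as biological replicates, with no word on whether they came from separate animals or separate cultures, or on whether an edited population was 1 clone. The p-values therefore measure the spread between these libraries, which may be technical.

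Cells carry receptors that recognise viral or misplaced nucleic acids. In the cytosol, RIG-I (the product of Ddx58) and MDA5 (Ifih1) bind double-stranded RNA and signal through the mitochondrial adaptor MAVS, and LGP2 (Dhx58) is a related helicase without signalling domains that tunes them. STING (Tmem173) carries the signal from the DNA sensor cGAS, TLR3 recognises double-stranded RNA in endosomes, and ZBP1 binds Z-form nucleic acid and can start inflammatory cell death. TBK1 is the kinase on which several of these routes meet, and it phosphorylates the transcription factor IRF3, which turns on type I interferon genes. Secreted interferon in turn acts through JAK kinases, STAT2 and IRF9 on the interferon-stimulated response element (ISRE) of many genes, and several of the sensors are themselves such interferon-stimulated genes.

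The promoters of Ifih1, Ddx58 and Tlr3 are shown because they differ in the letters of that element, while all 3 genes were higher in both groups labelled Prkcz-/-. Each sequence runs 5′ to 3′ on the gene's own strand, from 250 bases before to 50 bases after the start given by RefSeq (build GRCm38.p6), and capitals mark a match to the ISRE core (GAAA, any 2 bases, GAAA), searched on both strands.
Ifih1 (chr2:62646206-62646505, minus strand): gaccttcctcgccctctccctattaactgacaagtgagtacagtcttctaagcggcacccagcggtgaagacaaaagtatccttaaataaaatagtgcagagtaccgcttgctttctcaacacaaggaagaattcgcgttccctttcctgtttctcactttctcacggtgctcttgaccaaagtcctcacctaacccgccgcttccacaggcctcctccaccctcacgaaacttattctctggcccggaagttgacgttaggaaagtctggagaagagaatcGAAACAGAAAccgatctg
Ddx58 (chr4:40239776-40240075, minus strand): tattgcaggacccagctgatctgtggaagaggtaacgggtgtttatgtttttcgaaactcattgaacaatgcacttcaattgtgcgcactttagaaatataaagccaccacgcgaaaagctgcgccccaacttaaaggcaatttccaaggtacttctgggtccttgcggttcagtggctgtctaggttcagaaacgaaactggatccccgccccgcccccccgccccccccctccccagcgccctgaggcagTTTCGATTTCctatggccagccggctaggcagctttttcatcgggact
Tlr3 (chr8:45410331-45410630, minus strand): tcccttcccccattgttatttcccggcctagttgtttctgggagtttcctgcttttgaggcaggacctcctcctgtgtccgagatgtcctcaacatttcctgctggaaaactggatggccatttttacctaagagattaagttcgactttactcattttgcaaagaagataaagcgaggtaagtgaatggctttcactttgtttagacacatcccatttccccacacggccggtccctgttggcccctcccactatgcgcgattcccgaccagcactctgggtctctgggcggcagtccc
In Ifih1 the match lay on the gene's strand, with its first base 33 bases into the transcript when the start is counted as 1. In Ddx58 it lay on the opposite strand, so that it is printed as TTTCGATTTC, with its first printed base at position 3. No match was present in this window of Tlr3, Mavs or Tbk1. The Tlr3 window lay wholly inside the annotated gene, whose 5′ end is at 45411080, so sequence upstream of that end was not searched. Dhx58 and Zbp1 were not searched. Of all 32851 RefSeq promoters of the same length, 1131 or 3.44% held the ISRE core. The interferon-gamma-activated element GAS (TTCNNNGAA) was in none of the 5 promoters searched, against 2726 or 8.30% of all promoters. These matches describe letters only.

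The 12 libraries held 2.67 to 5.20 M reads, and the deposited columns all sum to 10 M, so values are normalised reads per 10 M. Prkcz, the targeted gene, went against the labels: it had 16, 13, 14 and 11 reads in the Sox2-guide libraries and 13, 8, 3 and 8 reads in the knockout-labelled libraries, against 0 reads in all 4 WT-labelled libraries. Tags at the 3′ end check a deletion only where it removes that end, and with the deleted exons not given in the sources used here, all directions below are between libraries named by their labels. Sox2 had 0 reads in all 4 Sox2-guide libraries and 425 to 636 reads in the knockout-labelled libraries, against 0, 1, 0 and 1 read in the WT-labelled ones. Sox2-guide replicate 1 stood apart from the other 3 of its group. Its mitochondrial share was 4.29%, against 9.39% to 10.3% in those 3 and 10.5% to 11.6% in the other 2 groups, and the chi-square over genes between its counts and theirs, divided by its degrees of freedom, was 27.6 to 31.3, against 2.39 to 5.32 for the other pairs of that group.

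Markers of other cells were checked because immune cells express sensors too. Of 12 immune markers, 7 were in the table, and they summed to 37.5 to 65.4 normalised reads in the Sox2-guide libraries and 50.1 to 90.6 in the knockout-labelled libraries, against 29.6 to 43.3 in the WT-labelled libraries. Ptprc, which encodes the pan-leukocyte antigen CD45, was at 0 in both groups labelled Prkcz-/-, and the macrophage marker Adgre1 was at 0 in all 12 libraries. Myeloid markers did not all move one way: Csf1r averaged 34.3 normalised reads in the knockout-labelled libraries and 3.27 in the WT-labelled libraries, and Lyz2 averaged 12.3 in the knockout-labelled libraries and was at 0 in the WT-labelled ones, while Cd68 averaged 9.54 in the knockout-labelled and 25.4 in the WT-labelled libraries. In the Sox2-guide libraries Csf1r averaged 7.04, Lyz2 1.55 and Cd68 35.9. The 9 epithelial markers in the table summed to 13.4 to 28.8 in the Sox2-guide libraries and 0 to 15.6 in the knockout-labelled libraries, against 128 to 177 in the WT-labelled libraries. The 12 fibroblast markers were all detected outside the Sox2-guide group and summed to 68710 to 72635 in the Sox2-guide libraries and 147810 to 151010 in the knockout-labelled libraries, against 66270 to 69567 in the WT-labelled libraries. That sum is carried largely by Col1a1, Fn1, Vim and Col1a2, and by S100a4, which in the WT-labelled libraries averaged 9429, above Col1a1 at 5829. Of the 11 fibroblast markers tested, 1 was higher and 8 were lower in the Sox2-guide group than in the knockout-labelled group, and 7 were higher and 4 lower in the knockout-labelled than in the WT-labelled group. Thy1 averaged 0.48 in the Sox2-guide and 146 in the knockout-labelled libraries, against 942 in the WT-labelled libraries. Dcn averaged 31.5 in the Sox2-guide and 55.3 in the knockout-labelled libraries, against 1374 in the WT-labelled libraries. Pdgfra averaged 40.9 in the Sox2-guide and 1448 in the knockout-labelled libraries, against 249 in the WT-labelled libraries, and Lum was at 0 in the Sox2-guide libraries.

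Summed markers of other cell types differed between the groups as well. The 5 mesothelial markers summed to 296 to 498 in the Sox2-guide libraries and 10.2 to 16.2 in the knockout-labelled libraries, against 1136 to 1296 in the WT-labelled libraries. Msln averaged 358 in the Sox2-guide and 0.78 in the knockout-labelled libraries, against 1111 in the WT-labelled libraries. The 7 smooth muscle markers summed to 249 to 346 in the Sox2-guide libraries and 1071 to 1133 in the knockout-labelled libraries, against 486 to 536 in the WT-labelled libraries. The 5 endothelial markers in the table summed to 90.4 to 116 in the Sox2-guide libraries and 20.3 to 26.2 in the knockout-labelled libraries, against 23.9 to 42.7 in the WT-labelled libraries, with Cdh5 at 0 in both groups labelled Prkcz-/-. The 8 glia and neuron markers summed to 452 to 506 in the Sox2-guide libraries and 630.1 to 787 in the knockout-labelled libraries, against 250.01 to 365 in the WT-labelled libraries. In bulk RNA, a change in the share of cells that express a gene and a change in RNA per cell cannot be told apart. The part that these marker differences play in the results was not tested.

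In knockout-labelled fibroblasts, set against WT-labelled ones, 6 of the 8 genes rose and none fell. The 3 RNA helicases, their adaptor Mavs, the endosomal receptor Tlr3 and the Z-nucleic acid sensor Zbp1 were higher, by between 1.6-fold and 19.2-fold in the ratio of group means, while Tmem173 and Tbk1 did not pass the test. The comparison as a whole was broad: 67.0% of the 12676 genes tested passed the same threshold, 37.6% of all genes as higher and 29.4% as lower. That split depends on the scaling: limma gave 4760 higher and 3733 lower, against 4088 and 4447 with quantile scaling and 4193 and 3980 in DESeq2. Groups of 4 did not overlap for 7 of the 8 members and for 66.0% of all genes. By size, the changes of Zbp1, Dhx58, Ddx58, Tlr3 and Ifih1 stood at the 97.9, 96.7, 95.1, 90.6 and 90.1 percentiles of all log2 changes, and that of Mavs at the 70.6 percentile. Tests are limma's moderated test on log2(value + 1) over all 12 libraries, with Benjamini-Hochberg adjustment over all genes and a threshold of 0.05, and errors of log2 changes are standard errors.

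**Figure D1:**
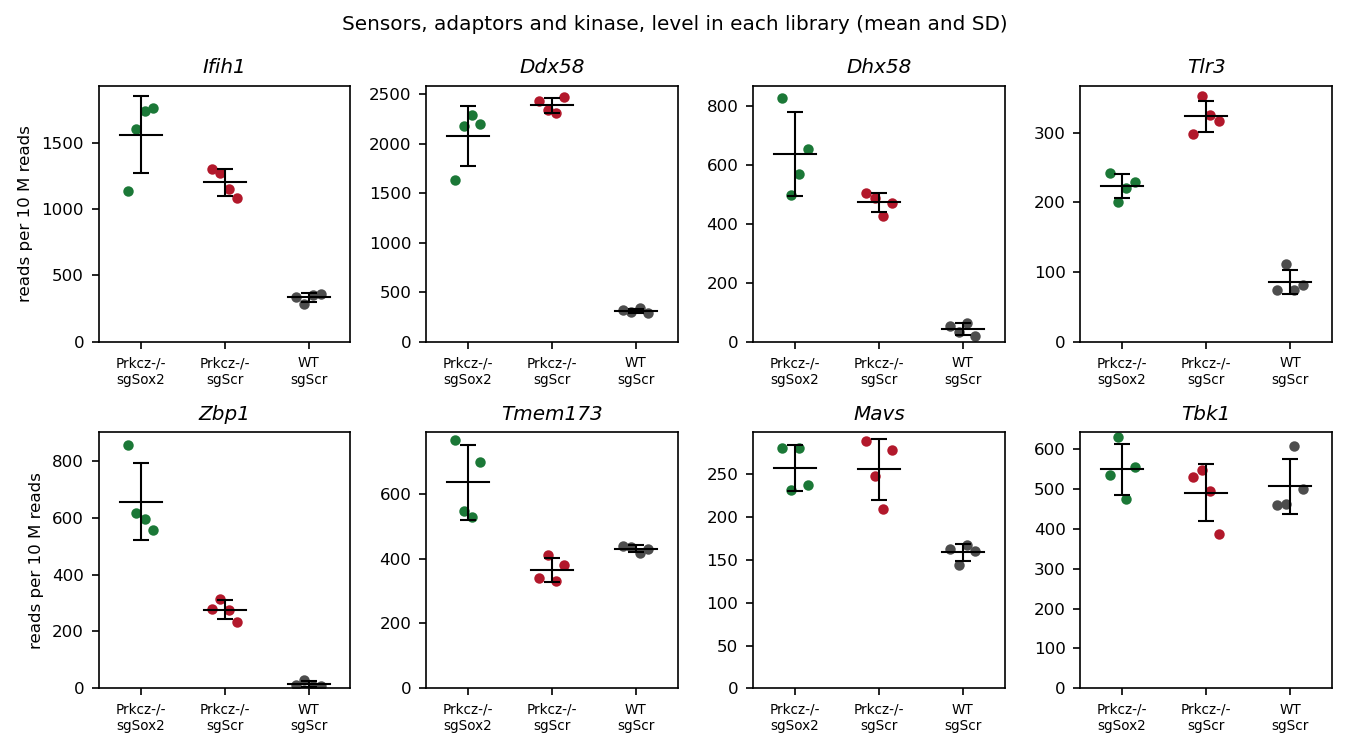
Normalised reads per 10 M (vertical axes, starting at 0, one scale per gene) of the 8 genes in each library. Points are the 4 libraries of the Sox2-guide, knockout-labelled and WT-labelled groups from left to right, and bars are the group mean and SD. Ifih1, Ddx58, Dhx58, Zbp1 and Tlr3 are low in all 4 WT-labelled libraries, Tmem173 is highest in the Sox2-guide libraries, and the 3 groups of Tbk1 overlap.

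Ddx58 (ENSMUSG00000040296, GRCm38 chromosome 4, 40203773 to 40239828, minus strand) encodes RIG-I, which recognises the 5′ triphosphate of short viral double-stranded RNA. Its level was 2429, 2341, 2309.6 and 2475 normalised reads in the knockout-labelled libraries, against 318, 299.7, 338 and 289 in the WT-labelled libraries. The groups were far apart and did not overlap. Means were 2389 ± 76.7 and 311 ± 21.6 (SD, n = 4 each), a log2 change of 2.94 ± 0.10 (limma adjusted p = 3.54e-13).

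Ifih1 (ENSMUSG00000026896, chromosome 2, 62595798 to 62646255, minus strand) encodes MDA5, the sensor of long double-stranded RNA. It measured 1301, 1268, 1148.5 and 1087 normalised reads in the knockout-labelled libraries, against 341, 282, 356 and 358 in the WT-labelled libraries, with no overlap. The means of 1201 ± 100.4 and 334 ± 35.9 (SD, n = 4 each) gave a log2 change of 1.85 ± 0.13 (limma adjusted p = 2.21e-09). Dhx58 (ENSMUSG00000017830, chromosome 11, 100694884 to 100704271, minus strand) encodes LGP2, the third helicase of the family. Its level was 504, 489.9, 429 and 472 normalised reads in the knockout-labelled libraries, against 55.2, 32.5, 62.9 and 19.7 in the WT-labelled libraries, where the values rest on 6 to 21 reads each. Dhx58 thus had the widest relative spread among the WT-labelled values of the 3 helicases, and its log2 change of 3.58 ± 0.27 (limma adjusted p = 5.11e-09) carries the largest error of the 3.

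Zbp1 (ENSMUSG00000027514, chromosome 2, 173206612 to 173218923, minus strand) was nearly absent from the WT-labelled libraries, at 4, 8, 3 and 2 reads. Its level was 281, 315, 275 and 233 normalised reads in the knockout-labelled libraries, against 13.0, 28.9, 8.98 and 6.57 in the WT-labelled libraries, with no overlap. The log2 change was 4.37 ± 0.31 (limma adjusted p = 2.32e-09), the highest of the 8 genes, and it depends on those few reads, since a pseudocount of 1 was added. Tlr3 (ENSMUSG00000031639, chromosome 8, 45395665 to 45411080, minus strand) had 299, 353, 325 and 317 normalised reads in the knockout-labelled libraries, against 74.7, 111.9, 74.8 and 82.1 in the WT-labelled libraries. The lowest knockout-labelled value was well above the highest WT-labelled one, and the log2 change was 1.92 ± 0.15 (limma adjusted p = 7.5e-09). Mavs (ENSMUSG00000037523, chromosome 2, 131234063 to 131248025, plus strand), through which RIG-I and MDA5 signal, differed less. It had 289, 248, 209.7 and 278 normalised reads in the knockout-labelled libraries, against 162, 144, 168 and 161 in the WT-labelled libraries, a log2 change of 0.68 ± 0.13 (limma adjusted p = 3.04e-04).

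Tmem173 (ENSMUSG00000024349, chromosome 18), which encodes STING, and Tbk1 (ENSMUSG00000020115, chromosome 10, 121546455 to 121586787, minus strand) were the 2 genes that did not pass the test. Tmem173 had 339, 411, 332 and 382 normalised reads in the knockout-labelled libraries, against 438, 437, 416 and 430.4 in the WT-labelled libraries. All 4 knockout-labelled values were below all 4 WT-labelled values, yet by little, and the log2 change was -0.24 with a 95% interval of -0.50 to 0.02 (limma adjusted p = 0.0969). Under 7 of the 24 alternatives tried it passed, at adjusted p between 0.0196 and 0.0467, as lower in the knockout-labelled group. Tbk1 had 531, 548, 494 and 388 normalised reads in the knockout-labelled libraries, against 461, 462, 608 and 499 in the WT-labelled libraries. The groups overlapped, and the log2 difference of -0.05 had a 95% interval of -0.33 to 0.22 (limma adjusted p = 0.733), so a difference in Tbk1 transcript above 1.3-fold in either direction lay outside the interval.

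The group with the Sox2 guide was next set against the knockout-labelled group, which shares the Prkcz-/- label and differs in the guide. Here the 8 genes did not move together: Zbp1, Tmem173 and Ifih1 rose, Tlr3 fell, and Ddx58, Dhx58, Mavs and Tbk1 did not pass the test. These 4 calls stand against a background of 60.7% of all genes tested, 30.5% higher and 30.2% lower. Groups did not overlap for 4 of the 8 members (Zbp1, Tmem173, Tlr3 and Ddx58) and for 53.6% of all genes, so the share called among the members is no larger than the share among all genes.

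Zbp1 had 857, 616, 596 and 558 normalised reads in the Sox2-guide libraries, against 281, 315, 275 and 233 in the knockout-labelled libraries. Every Sox2-guide library was above every knockout-labelled one, with replicate 1 the highest, and the log2 change was 1.24 ± 0.31 (limma adjusted p = 0.00239). Tmem173 had 767, 547, 528 and 699 normalised reads in the Sox2-guide libraries, against 339, 411, 332 and 382 in the knockout-labelled libraries. Its means were 635 ± 116 and 366 ± 37.3 (SD, n = 4 each), a log2 change of 0.78 ± 0.12 (limma adjusted p = 3.77e-05), again without overlap. Tlr3 moved the other way, with 242, 200.3, 221 and 229.7 normalised reads in the Sox2-guide libraries, against 299, 353, 325 and 317 in the knockout-labelled libraries. The log2 change was -0.53 ± 0.15 (limma adjusted p = 0.00523), and the highest Sox2-guide value was below the lowest knockout-labelled value. Without Sox2-guide replicate 1, the library that stood apart, the changes were 1.10 for Zbp1 (limma adjusted p = 0.00845), 0.69 for Tmem173 (adjusted p = 5.24e-05) and -0.57 for Tlr3 (adjusted p = 0.00438).

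The helicases were close between these groups. Ifih1 had 1136, 1602, 1739 and 1758.5 normalised reads in the Sox2-guide libraries, against 1301, 1268, 1148.5 and 1087 in the knockout-labelled libraries. Replicate 1 of the Sox2-guide group lay among the knockout-labelled values and the other 3 lay above them, and the log2 change was 0.36 ± 0.13 (limma adjusted p = 0.0245). The call was lost under 8 of the 24 alternatives, among them leaving out knockout-labelled replicate 3 or 4 or Sox2-guide replicate 2, 3 or 4, while without Sox2-guide replicate 1 the change was 0.50 (adjusted p = 2.25e-04). Ddx58 had 1630.3, 2176, 2293 and 2205 normalised reads in the Sox2-guide libraries, against 2429, 2341, 2309.6 and 2475 in the knockout-labelled libraries. The 4 Sox2-guide values were all lower, but the log2 difference of -0.21 did not pass (limma adjusted p = 0.0767), and it passed under 2 alternatives, quantile scaling (adjusted p = 0.0136) and leaving out Sox2-guide replicate 3 (adjusted p = 0.0443). Without Sox2-guide replicate 1 the difference of Ddx58 was -0.10 (limma adjusted p = 0.206). Dhx58 had 829, 498.5, 569.6 and 654.5 normalised reads in the Sox2-guide libraries, against 504, 489.9, 429 and 472 in the knockout-labelled libraries. Its log2 difference of 0.40 had a 95% interval of -0.16 to 0.97 (limma adjusted p = 0.203), and it passed as higher when just these 2 groups were fitted (adjusted p = 0.033), in edgeR (adjusted p = 0.0209) and in DESeq2 (adjusted p = 0.021), while without Sox2-guide replicate 1 it was 0.27 (adjusted p = 0.419).

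The adaptor and the kinase showed no change that passed. Mavs had 281, 231, 281 and 237 normalised reads in the Sox2-guide libraries, against 289, 248, 209.7 and 278 in the knockout-labelled libraries, and the groups overlapped. Its log2 difference was 0.01 with a 95% interval of -0.27 to 0.30 (limma adjusted p = 0.939). Tbk1 had 536, 629.8, 476 and 556 normalised reads in the Sox2-guide libraries, against 531, 548, 494 and 388 in the knockout-labelled libraries. The log2 difference was 0.17, with a 95% interval of -0.10 to 0.44 (limma adjusted p = 0.269), and the groups overlapped.

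Set against the WT-labelled group, the Sox2-guide group had 7 of the 8 genes higher and none lower. In this comparison 52.0% of all genes tested passed, 30.1% higher and 22.0% lower, and groups did not overlap for 7 members and for 46.6% of all genes. DESeq2 on the recovered reads split the calls the other way, 2958 higher and 3230 lower, where limma gave 3813 and 2783, and all 7 of the members were higher in DESeq2 too. The largest log2 change was that of Zbp1, 5.60 ± 0.31 (limma adjusted p = 2.8e-10), the 99.8 percentile of all genes. Dhx58 was higher by 3.98, Ddx58 by 2.72 and Ifih1 by 2.20 on the log2 scale, all with limma adjusted p at or below 3.6e-09. Tlr3 was higher by 1.39 (adjusted p = 9.26e-07), Mavs by 0.69 (adjusted p = 4.19e-04) and Tmem173 by 0.54 (adjusted p = 0.00143). Without Sox2-guide replicate 1 the same 7 genes were higher, by 0.45 for Tmem173 to 5.47 for Zbp1. Tbk1 again overlapped between groups, with a difference of 0.12 and a 95% interval of -0.16 to 0.39 (limma adjusted p = 0.471).

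**Figure D2:**
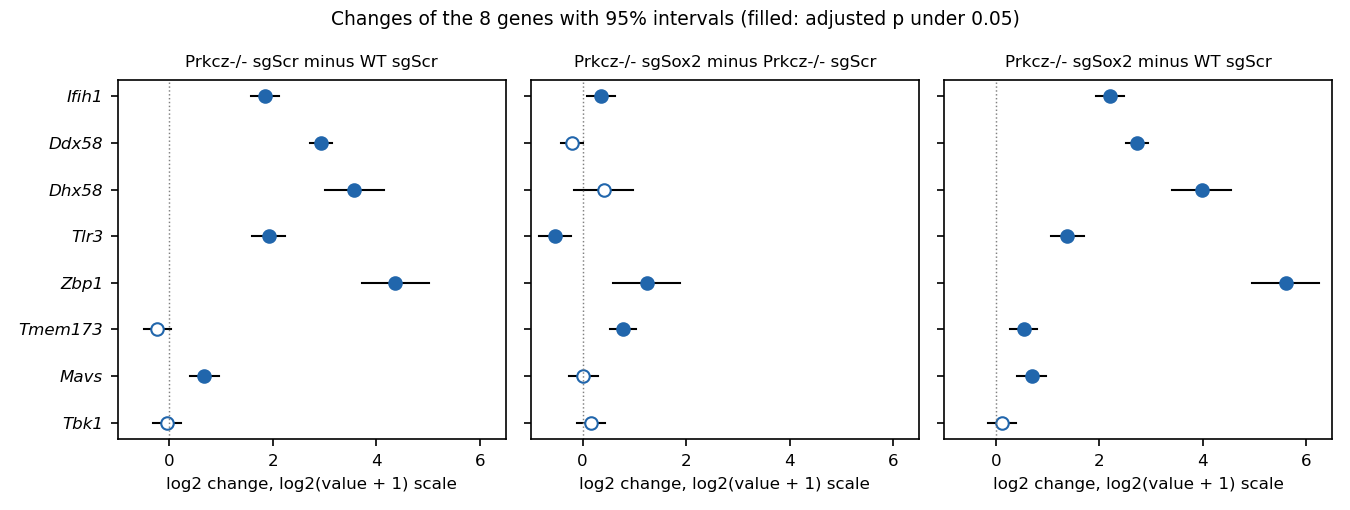
Log2 change on the log2(value + 1) scale (horizontal axes) of the 8 genes in the 3 comparisons, with 95% intervals from limma. Filled points passed an adjusted p of 0.05. Zbp1 has the highest change in each panel, Tbk1 lies near 0 in all 3, and Tlr3 is the 1 filled point below 0, in the Sox2-guide against knockout-labelled panel.

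The 3 comparisons share libraries, since each group enters 2 of them, so they are not independent of each other. Read by gene over the 3 groups, the order of group means was the same for Ifih1, Dhx58 and Zbp1, with the Sox2-guide group highest, the knockout-labelled group next and the WT-labelled group lowest, although for Dhx58 the upper pair did not differ beyond its spread. Ddx58 and Tlr3 were highest in the knockout-labelled group and lowest in the WT-labelled group, and for Ddx58 the upper pair did not pass the test. Mavs was lowest in the WT-labelled group, with the other 2 groups alike within their spread. Tmem173 and Tbk1 had their lowest mean in the knockout-labelled group. The lower pair of Tmem173 did not pass the test, and for Tbk1 no neighbouring groups in the order differed beyond their spread.

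**Figure D3:**
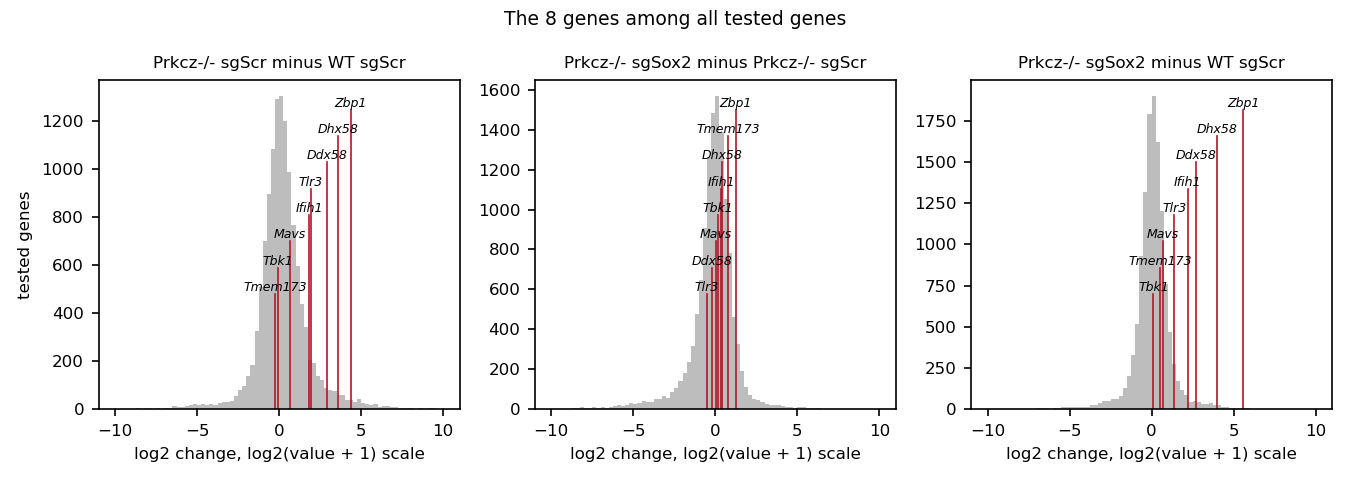
Distribution of the log2 change of all 12676 genes tested (grey bars, number of genes per bin on the vertical axes) in the 3 comparisons, with the 8 genes marked by vertical lines whose heights serve only to separate the names. In both comparisons with the WT-labelled group Zbp1, Dhx58 and Ddx58 stand in the upper tail, and in the comparison of the Sox2-guide with the knockout-labelled group the 8 genes lie between the 27.8 and 91.9 percentiles.

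The other genes of the pathway were read from 8 lists, and no list was tested as a set. Their counts stand beside the shares of all genes called. In the knockout-labelled against WT-labelled comparison those were 37.6% higher and 29.4% lower. They were 30.5% and 30.2% in the Sox2-guide against knockout-labelled comparison, and 30.1% and 22.0% in the Sox2-guide against WT-labelled one. Among 29 tested helpers and effectors of RNA sensing, such as the ubiquitin ligase Trim25 and the OAS enzymes, 21 rose and 6 fell in the knockout-labelled group, against the WT-labelled group, and the median log2 change was 1.36 against 0.12 over all genes. Ifit3, which binds foreign RNA with its IFIT partners, averaged 3402 ± 312 normalised reads in knockout-labelled and 171 ± 40.2 in WT-labelled libraries (log2 change 4.33, limma adjusted p = 3.54e-13), although near-identical copies make its counts uncertain. Ifit1 averaged 6020 ± 599.8 in knockout-labelled libraries and 1083 ± 95.9 in WT-labelled libraries (2.47, adjusted p = 2.76e-12). Not all members of that list rose: Oasl1, which represses Irf7 translation in mice, averaged 19.6 ± 7.20 in knockout-labelled libraries and 158 ± 16.5 in WT-labelled libraries (-3.02, adjusted p = 8.9e-09). The stress granule protein gene G3bp1 fell as well, to 1843 ± 216 in knockout-labelled libraries, against 4515 ± 181 in WT-labelled libraries (-1.30, adjusted p = 4.45e-08).

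In the Sox2-guide group, set against the knockout-labelled group, 12 of these 29 genes rose and 2 fell. Without Sox2-guide replicate 1 the counts were 14 and 3. Among all genes 60.7% were called in this comparison, and the median of the list was 0.20 against -0.01 over all genes. Oas3, an enzyme that makes 2′-5′ oligoadenylate on double-stranded RNA, averaged 491 ± 85.9 in the Sox2-guide libraries and 10.4 ± 4.30 in the knockout-labelled libraries (log2 change 5.50, limma adjusted p = 1.59e-09). Oasl1 averaged 234 ± 40.0 in the Sox2-guide libraries and 19.6 ± 7.20 in the knockout-labelled libraries (3.57, adjusted p = 1.74e-09). Against the WT-labelled group, 20 rose and 2 fell in the Sox2-guide group, with a median of 1.70 against 0.08 over all genes, among them Isg15, with 6510 ± 1349 in the Sox2-guide libraries and 456 ± 51.7 in the WT-labelled libraries (3.82, adjusted p = 2.01e-12).

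The DNA-sensing arm around Tmem173 was split. Of 14 genes tested, 6 rose and 3 fell in the knockout-labelled group, against the WT-labelled group. In that comparison 67.0% of all genes were called, and the list's median log2 change was 0.08 against 0.12 over all genes. Cgas, which makes the messenger that activates STING, had 622, 629.8, 657 and 599 normalised reads in the knockout-labelled libraries, against 679, 527, 599 and 618 in the WT-labelled libraries. Those values overlapped, with a log2 difference of 0.06 (limma adjusted p = 0.703). In the Sox2-guide libraries Cgas had 629, 895, 967 and 867 normalised reads, a log2 change of 0.40 against the knockout-labelled libraries (adjusted p = 0.00865), and replicate 1 lay among the knockout-labelled values. Enpp1, whose product degrades that messenger, fell to 18.8 ± 6.95 in the knockout-labelled libraries, against 218 ± 43.5 in the WT-labelled libraries (-3.50, adjusted p = 3.56e-08). The interferon-inducible Ifi203 averaged 747 ± 44.0 in knockout-labelled libraries and 68.3 ± 20.2 in WT-labelled libraries (3.48, adjusted p = 1.93e-11), and Ifi204 averaged 912 ± 144 in knockout-labelled libraries and 194 ± 26.1 in WT-labelled libraries (2.23, adjusted p = 6.39e-11), with the caution that this gene cluster holds near-identical copies.

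In the Sox2-guide group, 8 of the 14 DNA-sensing genes rose and 2 fell against the knockout-labelled group, with a median of 0.54 against -0.01 over all genes. Ddx41, a helicase reported to bind DNA upstream of STING, averaged 329 ± 43.3 in the Sox2-guide libraries and 142 ± 21.7 in the knockout-labelled libraries (1.22, limma adjusted p = 2.26e-06). Samhd1, which depletes deoxynucleotides, fell to 2306 ± 253 in the Sox2-guide libraries, against 2778 ± 91.0 in the knockout-labelled libraries (-0.27, adjusted p = 0.00738). Against the WT-labelled group, 8 of the 14 rose and 3 fell in the Sox2-guide group, with a median of 0.68 against 0.08 over all genes.

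Of the endosomal genes beside Tlr3, 6 were tested. In the knockout-labelled group, against the WT-labelled group, 4 rose and 2 fell, with a median log2 change of 0.36 against 0.12 over all genes. Ticam1, the adaptor TRIF through which TLR3 signals, had a mean of 140.4 ± 29.1 in knockout-labelled libraries and 61.7 ± 8.52 in WT-labelled libraries (log2 change 1.16, limma adjusted p = 2.16e-04). It fell to 89.1 ± 25.5 in the Sox2-guide libraries, against the 140.4 of the knockout-labelled libraries (-0.67, adjusted p = 0.0156). Unc93b1, the chaperone that carries TLR3 to endosomes, averaged 120.1 ± 46.0 in knockout-labelled libraries and 45.4 ± 10.7 in WT-labelled libraries (1.32, adjusted p = 9.65e-04). It averaged 202 ± 73.4 in the Sox2-guide libraries, a log2 change of 2.08 against the WT-labelled group (adjusted p = 2.37e-05). Between the Sox2-guide and the knockout-labelled group, 3 of the 6 genes rose and 2 fell, but without Sox2-guide replicate 1 just 1 rose and 2 fell, and the median over all 12 libraries was 0.27 against -0.01 over all genes. Against the WT-labelled group 3 rose and 1 fell in the Sox2-guide group, with a median of 0.48 against 0.08 over all genes.

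Around the kinase, 6 of 17 genes of the signal relay to interferon rose and 3 fell in the knockout-labelled group, against the WT-labelled group. In that comparison 67.0% of all genes were called, and the list's median log2 change was 0.10 against 0.12 over all genes. Irf3, the factor that TBK1 phosphorylates, had 362, 347, 357 and 404 normalised reads in the knockout-labelled libraries, against 344, 296, 311 and 361 in the WT-labelled libraries. The groups overlapped (log2 difference 0.16, limma adjusted p = 0.22). Irf7, its interferon-inducible relative, had 1461.5, 1499, 1346 and 1608 in the knockout-labelled libraries, against 90.9, 79.4, 147 and 75.6 in the WT-labelled libraries (3.95, adjusted p = 1.22e-11). Optn, an adaptor that binds TBK1, averaged 227 ± 38.1 in knockout-labelled libraries and 21.5 ± 14.0 in WT-labelled libraries (3.51, adjusted p = 4.87e-08). Azi2, another TBK1 adaptor, fell to 308 ± 40.4 in the knockout-labelled libraries, against 529 ± 23.7 in the WT-labelled libraries (-0.79, adjusted p = 1.28e-05), and Traf3, a ubiquitin ligase of the relay, fell to 243 ± 24.7 in the knockout-labelled libraries, against 375 ± 51.8 in the WT-labelled libraries (-0.62, adjusted p = 5.73e-04).

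With the Sox2 guide, 7 of the 17 relay genes rose and 5 fell against the knockout-labelled group, or 5 and 6 without Sox2-guide replicate 1, with a median of 0.11 against -0.01 over all genes. Traf3 averaged 682 ± 97.7 in the Sox2-guide libraries and 243 ± 24.7 in the knockout-labelled libraries (log2 change 1.48, limma adjusted p = 6.51e-08). Tank, a scaffold of TBK1, averaged 683 ± 103 in the Sox2-guide libraries and 356 ± 53.8 in the knockout-labelled libraries (0.94, adjusted p = 1.76e-05). Ikbke, the kinase most closely related to Tbk1, had 51.9, 22.3, 18.7 and 56.8 normalised reads in the Sox2-guide libraries, against 101.6, 90.4, 53.2 and 103.6 in the knockout-labelled libraries (-1.31, adjusted p = 0.00416), and the groups overlapped. Irf3 fell too, with 342, 263, 311 and 277 in the Sox2-guide libraries (-0.31, adjusted p = 0.0309), while Irf7 did not pass (-0.04, adjusted p = 0.855). Against the WT-labelled group, 9 of the 17 rose and 3 fell in the Sox2-guide group, with a median of 0.63 against 0.08 over all genes, and Irf7 rose by 3.91 (adjusted p = 4.01e-11).

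**Figure D4:**
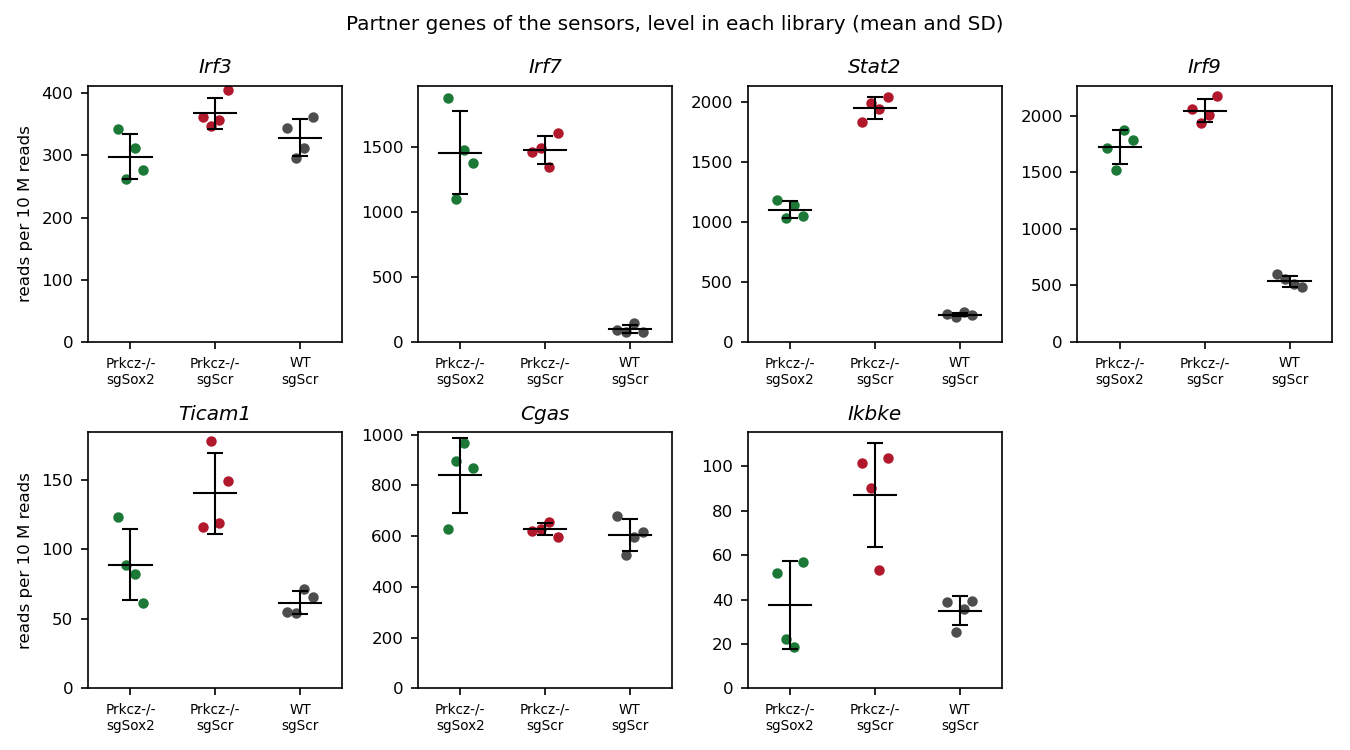
Normalised reads per 10 M (vertical axes, starting at 0, one scale per gene) of 7 partners of the sensors in each library, with points for the 4 libraries of the Sox2-guide, knockout-labelled and WT-labelled groups from left to right and bars for the mean and SD. Irf7, Stat2 and Irf9 are low in all 4 WT-labelled libraries, Irf3 and Cgas overlap between the knockout-labelled and WT-labelled groups, and Stat2 is lower in the Sox2-guide than in the knockout-labelled libraries.

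For interferon signalling, transcript levels of receptors, kinases and target genes were read, while signalling activity was not measured. Of 15 tested genes for interferon receptors, JAK kinases, STAT factors and their regulators, 10 rose and 2 fell in the knockout-labelled group, against the WT-labelled group, with a median log2 change of 0.61 against 0.12 over all genes. Stat2 averaged 1955 ± 89.6 normalised reads in knockout-labelled libraries and 227 ± 15.7 in WT-labelled libraries (3.10, limma adjusted p = 2.31e-14). Irf9, its partner, averaged 2048 ± 103 in knockout-labelled libraries and 537 ± 49.3 in WT-labelled libraries (1.93, adjusted p = 1.12e-11), and it overlaps Rnf31 on the same strand, so its counts are uncertain. Socs1, a feedback inhibitor of JAK kinases, fell to 19.6 ± 3.57 in the knockout-labelled libraries, against 111.4 ± 4.71 in the WT-labelled libraries (-2.47, adjusted p = 1.51e-05). Ifnb1 was looked for by symbol but matched no gene in the values used here, so its level is not known. Of 27 interferon-stimulated genes used as a readout, 27 rose, with a median of 2.99, among them the GTPases Igtp (4.06, adjusted p = 5.42e-15) and Gbp3 (4.13, adjusted p = 1.09e-14). This readout was put together with earlier results of these libraries known, so its direction is not independent evidence.

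In the Sox2-guide group, 2 of these 15 genes rose and 8 fell against the knockout-labelled group, with a median of -0.32 against -0.01 over all genes. Stat2 fell to 1104 ± 69.0 in the Sox2-guide libraries, against 1955 ± 89.6 in the knockout-labelled libraries (log2 change -0.82, limma adjusted p = 3.1e-07). The receptor chain Ifngr1 fell to 597 ± 100.3 in the Sox2-guide libraries, against 1159 ± 98.1 in the knockout-labelled libraries (-0.97, adjusted p = 4.89e-06). Of the 27 readout genes, 6 rose and 13 fell, with a median of -0.38. The antiviral Rsad2 averaged 6567 ± 806 in the Sox2-guide libraries and 1929 ± 80.1 in the knockout-labelled libraries (1.76, adjusted p = 8.04e-11), whereas Mx1 fell to 157 ± 21.5 in the Sox2-guide libraries, against 777 ± 65.1 in the knockout-labelled libraries (-2.31, adjusted p = 1.32e-08). Zbp1 and Tmem173 were higher and Tlr3 lower in this comparison, and how they relate to Stat2 or to the readout genes was not tested. Set against the WT-labelled group, 6 of the 15 rose and 3 fell in the Sox2-guide group, with a median of 0.13, and all 27 readout genes rose, with a median of 2.72 against 0.08 over all genes.

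**Figure D5:**
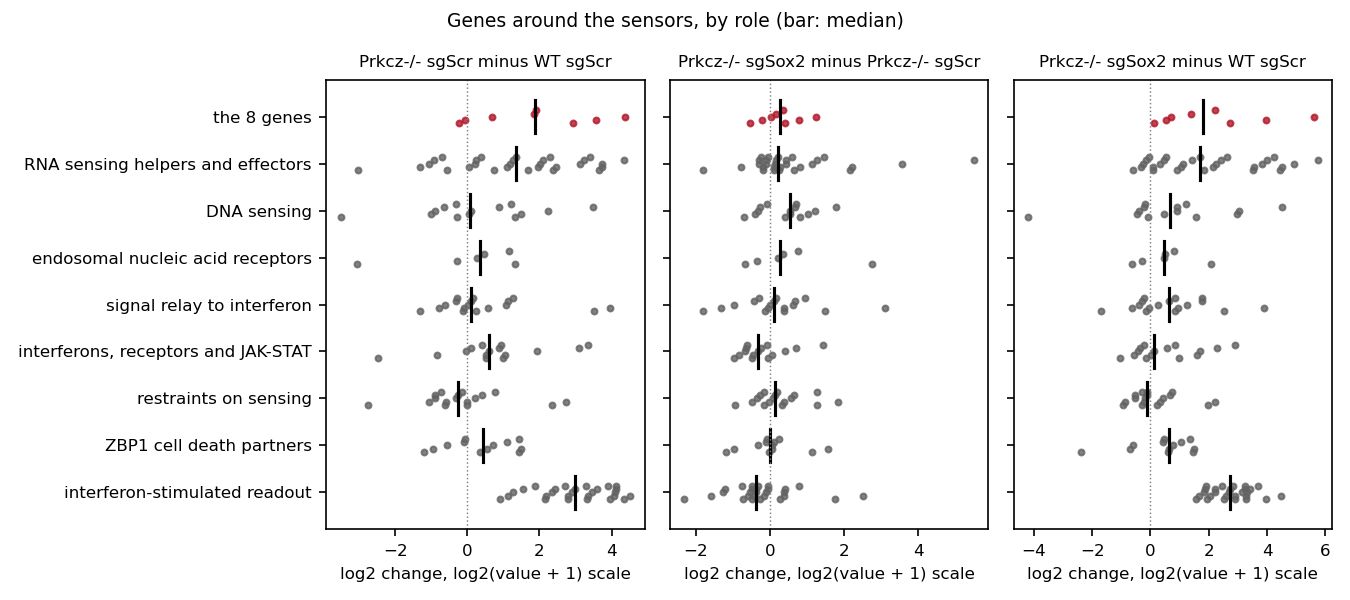
Log2 change on the log2(value + 1) scale (horizontal axes) of each tested gene in the 8 genes (top row, red) and the 8 pathway lists (other rows, grey) in the 3 comparisons, with a black bar at each median. The interferon-stimulated readout lies wholly above 0 in both comparisons with the WT-labelled group, at medians of 2.99 and 2.72, and has a median of -0.38 in the Sox2-guide against knockout-labelled comparison.

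Of 17 genes known to restrain sensing, 3 rose and 7 fell in the knockout-labelled group, against the WT-labelled group. In that comparison 67.0% of all genes were called, and the list's median log2 change was -0.24 against 0.12 over all genes. Rnaseh2b, a subunit of the RNase H2 complex that removes RNA from RNA-DNA hybrids, fell to 217 ± 23.4 in the knockout-labelled libraries, against 453 ± 32.1 in the WT-labelled libraries (-1.06, limma adjusted p = 1.07e-06). Nlrc3, reported to restrain STING, fell to 9.92 ± 4.28 in the knockout-labelled libraries, against 69.2 ± 9.09 in the WT-labelled libraries (-2.76, adjusted p = 1.82e-06). Nlrc5, which is also the activator of MHC class I genes, rose to 265 ± 19.8 in the knockout-labelled libraries, against 39.9 ± 9.25 in the WT-labelled libraries (2.73, adjusted p = 4.21e-09). With the Sox2 guide, 8 of the 17 rose and 2 fell against the knockout-labelled group, where 60.7% of all genes were called. The median of the list was 0.14 against -0.01 over all genes. Rnaseh2b averaged 529 ± 80.3 in the Sox2-guide libraries and 217 ± 23.4 in the knockout-labelled libraries (1.28, adjusted p = 1.69e-07), and Rnaseh2c averaged 1042 ± 232 in the Sox2-guide libraries and 425 ± 32.9 in the knockout-labelled libraries (1.27, adjusted p = 3.37e-07). Smad3, a transducer of TGF-beta, fell to 656 ± 52.8 in the Sox2-guide libraries, against 1261 ± 21.0 in the knockout-labelled libraries (-0.95, adjusted p = 8.05e-08). Against the WT-labelled group, 4 rose and 4 fell in the Sox2-guide group, with a median of -0.13 against 0.08 over all genes.

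Of 12 genes for the cell death that ZBP1 can start, 6 rose and 2 fell in the knockout-labelled group, against the WT-labelled group, close to the 67.0% called among all genes, and the median log2 change was 0.45 against 0.12 over all genes. Casp8, the caspase that holds necroptosis in check, averaged 757 ± 78.7 in knockout-labelled libraries and 356 ± 62.5 in WT-labelled libraries (log2 change 1.10, limma adjusted p = 5.25e-07). Ripk3, the kinase that ZBP1 engages, went opposite to Zbp1: it fell to 115 ± 16.5 in the knockout-labelled libraries, against 265 ± 42.5 in the WT-labelled libraries (-1.19, adjusted p = 5.14e-05). In the Sox2-guide libraries it fell further, to 50.7 ± 12.8, against 115 ± 16.5 in the knockout-labelled libraries (-1.18, adjusted p = 6.99e-05). Mlkl, the pore former that RIPK3 phosphorylates, averaged 441 ± 52.3 in the Sox2-guide libraries and 205 ± 45.7 in the knockout-labelled libraries (1.12, adjusted p = 8.08e-06), and the pyroptosis pore Gsdmd averaged 571 ± 119 in the Sox2-guide libraries and 196 ± 48.5 in the knockout-labelled libraries (1.55, adjusted p = 1.51e-06). Between those groups 2 of the 12 rose and 2 fell, or 3 and 2 without Sox2-guide replicate 1, with a median of 0.01 against -0.01 over all genes. Against the WT-labelled group, 7 rose and 2 fell in the Sox2-guide group, with a median of 0.63 against 0.08.

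For each of the 8 genes, the 2 genes with the most similar profile were found among 9721 genes with a mean of at least 50, by the root mean square (RMS) difference of log2 values centred on each gene's own mean over the 12 libraries. Ifih1 was closest to Eif2ak2 (RMS 0.196) and Trim25 (0.244), Ddx58 to Parp14 (0.144) and Gbp2 (0.193), and Dhx58 to Parp10 (0.318) and Irf7 (0.321). For Zbp1 the nearest were Runx3 at 0.409 and Ptx3 at 0.521. The difference is not scaled by a gene's range, and Zbp1 had the largest changes and few reads in the WT-labelled libraries. Its larger distances therefore do not show that it lacks genes of similar pattern. Tlr3 was closest to Map4k2 (0.134) and Serhl (0.16), Mavs to Ttc1 (0.111) and Timm22 (0.116), Tmem173 to Hint1 (0.0899) and Nup85 (0.0962), and Tbk1 to Arl6ip6 (0.122) and Mdfic (0.128). Values over 12 libraries of 3 groups mainly reflect the group means, and libraries share their depth within a column. Other named genes, the targeted Prkcz and Sox2 among them, had 69 calls in the comparisons of the Sox2-guide group. Many of these genes were chosen for the smallest adjusted p in these same data, which favours calls that hold. Of the 69 calls, 67 held in the same direction without Sox2-guide replicate 1. The exceptions were Slc15a4, an endosomal transporter, against the knockout-labelled group (log2 difference 0.25 without that library, limma adjusted p = 0.0757) and the receptor chain Ifnar1 against the WT-labelled group (-0.54, adjusted p = 0.0565). No gene of the 8 overlaps another tested gene in the annotation.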

How the data were processed

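RNA of 12 colon fibroblast libraries was measured by QuantSeq 3′ mRNA-Seq (FWD kit, optional molecular identifiers, single-end reads), per the labels' protocols. The deposited signal values are gene counts that the authors scaled to a common depth, per the file headers and the values: every column sums to 1e+07, and 100% of values were whole reads within a tolerance of 0.01 once divided by the column's smallest step. The build is GRCm38, per the submitters' processing notes. With the aligner, counter, strand setting and use of the identifiers not given in the sources used here, a gene and an overlapping gene on the other strand cannot be told apart (among those named: Azi2, Eif2ak2, Hsp90b1, Irf3, Irf7, Map4k2, Mre11a, Nlrc5, Rnaseh2c and Serhl), and Casp8, Ifi203, Igtp, Parp10 and Sox2, like Irf9, overlap a gene on the same strand.

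Values were tested as log2(value + 1) with limma 3.58.1 (trend, R 4.3.3) in 1 fit over all 12 libraries, for the 12676 genes with a mean of at least 10, with Benjamini-Hochberg adjustment and a threshold of 0.05. The pseudocount of 1 understates changes of low genes. Recovered reads were also tested with edgeR 4.0.16 and DESeq2 1.42.0. The steps were tested on simulated data. Symbols come from GENCODE and matched 23002 of 23106 IDs. Named genes are the 8 members, Prkcz, Sox2, Ifnb1, Irf3, Irf7, Stat2, Irf9, Ticam1, Cgas, the 2 genes of smallest adjusted p in each direction per list and comparison, of which some are printed and some are not reported here, and the 2 nearest profiles per member. Ikbke is also named in its own right as a plotted partner. The members, lists and tests were chosen with earlier results of these data known. Libraries were not paired by replicate number in the main fit.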

Additional observations from a re-analysis of the deposited data

How the results depend on the processing

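Of 576 changes of the 8 genes under the alternatives, 546 kept their direction and side of the threshold, 8 lost and 12 gained a call, and 10 changed sign without passing in either case. The 8 lost calls were all of Ifih1 in the Sox2-guide against knockout-labelled comparison. The sign changed for Mavs in that comparison, at -0.0099 with median-of-ratios scaling, -0.031 without mitochondrial genes, -0.079 without knockout-labelled replicate 3, -0.030 and -0.031 without Sox2-guide replicates 1 and 3, -0.035 in edgeR and -0.032 in DESeq2 (-0.079 to 0.074 over all libraries left out 1 at a time), and for Tbk1 in the knockout-labelled against WT-labelled comparison, at 0.0070 with array weights, 0.037 without WT-labelled replicate 3 and 0.055 without knockout-labelled replicate 4 (-0.11 to 0.055). The cause was not tested. Leaving out 1 library at a time gave 8066 to 8982 genes called in the knockout-labelled against WT-labelled comparison, 7103 to 7816 in the Sox2-guide against knockout-labelled one and 5991 to 6722 in the Sox2-guide against WT-labelled one, with 6 to 7, 3 to 4 and 7 members. Quantile scaling moved the median of all genes by -0.17 on the log2 scale in the first comparison, and median-of-ratios scaling by -0.11 in the last. The tests on recovered reads were chosen after seeing the data. Genes at a few reads, such as Zbp1 in the WT-labelled libraries, are limited by depth.

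With the replicate number as a block, 8508, 7693 and 6627 genes were called in the same order of comparisons, against 8493, 7689 and 6596 without it, and 6, 4 and 7 members. Same-numbered libraries correlated at -0.04 to 0.133, and 4 libraries correlated best with their own number in another group. With 4 libraries per group, such values cannot show whether equal numbers share an animal, culture or day. The block changed no call of a member.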
